A study of Mus musculus with 2 samples.

Results

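The 10 apolipoprotein genes described here are Apoe, Apoc1, Apoc2, Apoc4, Apod, Apoa1, Apoa2, Apob, Apoh and Apom, taken as all transcript models to which the deposited tables give one of these gene names. Reads were found for 9 of the 10, of 16400 annotated mouse genes read in at least 1 library. Adrenal glands came from 25-day-old females of B6CASTF1/J, an F1 hybrid of the strains C57BL/6J and CAST/EiJ, with no treatment and no other genotype. Long-read RNA sequencing of total RNA gave 1 group of 2 libraries, replicate 1 and replicate 2, so no condition could be compared and every test below compares these libraries only. The library labels give both the same animal number, whereas the tissue labels give each its own, so it is not settled that they come from separate animals; p-values and intervals cover counting error and not the spread between animals.

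Apolipoproteins are the protein coat of lipoproteins, the particles that carry cholesterol and triglycerides in blood. Most are made in liver and gut, but Apoe is also made in many other tissues, among them macrophages and steroid-producing cells. ApoE is the ligand by which particles bind their receptors on cells. ApoA-I and ApoA-II are the main proteins of HDL, from which rodent adrenal cells take cholesterol through the receptor encoded by Scarb1. ApoC proteins modulate lipases and particle uptake, and ApoB is the scaffold of LDL and its precursors.

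Nearly all the reads were on Apoe, Apoc1 and Apoc4, neighbouring genes that lie one after another on the minus strand of chromosome 7. Short stretches at splice junctions of the models read, and at annotated transcript ends, are shown here in mm10 (GRCm38) coordinates, 5′ to 3′. The following sequences come from the GENCODE M21 transcripts, except the unannotated Apoe site, which comes from a RefSeq gene-start window of GRCm38.p6. The Apoe set shows the main junction (capitals, exon 2), an unannotated splice site that both libraries used (capitals, intron), the start of a transcript that begins in intron 1 (all capitals), and the 3′ end annotated for Apoe-205 (capitals, the polyadenylation signal AATAAA, which ends 13 bases before it; the annotated end of the gene lies 163 bases further on).
Apoe exon 1 to exon 2: tttcggaaggagctgACTGGCCAATCACAA
Apoe unannotated site in intron 1, chr7:19698842-19698871: taaggactcgagGTAACTAGCCTTTGCCAG
Apoe-205 start, chr7:19698378-19698407: GGAGGTAAACAGACCTTTGGGAAGAGCGGG
Apoe-205 3′ end, chr7:19696272-19696301: ggcccttgcttAATAAAgattctccgagca
The Apoc1 set shows both borders of intron 1, which some reads keep (capitals, intron), and the bases that unannotated splice sites leave out of exons 2 and 3 (capitals, bases left out). The last line is the junction by which an annotated read-through transcript joins Apoc4 to Apoc2 (capitals, bases after the junction).
Apoc1 intron 1, 5′ border, chr7:19692594-19692623: gatccttagatccagGTTAGTGCATAGGAA
Apoc1 intron 1, 3′ border, chr7:19692472-19692501: TGCGTCTGCCTCCAGggtgcccctccaacc
Apoc1 start of exon 2, chr7:19692457-19692486: GGTGCCCCTCCAACCAGgatgaggctcttc
Apoc1 exon 2 to exon 3: tgaccttggaagGCCCAGcccccgcccagg
Apoc4 to Apoc2 read-through: tggtcagctttgtagGCCTGCCACCCCACC

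Replicate 1 held 397176 reads and replicate 2 held 712032 reads on annotated mouse genes, and levels are given as reads per 1000000 of these (CPM). A long read stands for 1 cDNA molecule whatever its length, so CPM was not divided by gene length. No molecular identifiers were counted, so reads may repeat a molecule and the intervals can be too narrow. All 9 markers of adrenal cortex and all 7 of medulla were read in both libraries, and the 9 kidney markers had 0 reads in each. Of 29 liver markers, 28 were read in replicate 1 and 8 in replicate 2. Many of those with 0 reads in replicate 2 had few in replicate 1. Over all annotated genes, 13650 were read in replicate 1 and 15328 in replicate 2. Between the libraries, 199 of 9271 tested genes passed an adjusted p of 0.05 in the exact binomial test, 125 of them higher in replicate 1 and 74 higher in replicate 2. With TMM scaling 203 passed, 148 and 55 in those directions.

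Apoe, the receptor ligand, was the most read of the 10 genes. Replicate 1 had 714 reads (1798 CPM, 95% counting interval 1668 to 1935) and replicate 2 had 1191 (1673 CPM, 1579 to 1770), a mean of 1735 ± 88.4 CPM (SD, n = 2). That mean ranked 34 among the 16400 genes read. Apoe (ENSMUSG00000002985.16) lies at chr7:19696109-19699188. The difference between the libraries did not pass the test for Apoe: the log2 ratio of replicate 2 over replicate 1 was -0.10, with an interval of -0.24 to 0.03 (adjusted p = 0.616, exact binomial test).

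Apoc1, a small exchangeable apolipoprotein that hinders particle uptake and lipase action, came next. Replicate 1 had 354 reads (891 CPM, 800.9 to 989) and replicate 2 had 592 (831 CPM, 766 to 901), a mean of 861 ± 42.3 CPM (SD, n = 2) and rank 122. Apoc1 (ENSMUSG00000040564.14) lies at chr7:19689481-19692660. Its log2 ratio was -0.10, with an interval of -0.29 to 0.09 (adjusted p = 0.818, exact binomial test). The ratio of Apoe to Apoc1 reads was 2.02 (1.77 to 2.30) in replicate 1 and 2.01 (1.82 to 2.22) in replicate 2, so the libraries held these genes in nearly the same proportion.

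Apoc4, a minor ApoC protein, was the third member read in both libraries at a level that could be tested. It had 45 reads (113 CPM, 82.6 to 152) and 60 reads (84.3 CPM, 64.3 to 108), a mean of 98.8 ± 20.5 CPM (SD, n = 2) and rank 2149. Its counting intervals overlapped between the libraries, and the log2 ratio of -0.43 (interval -1.01 to 0.16) did not pass (adjusted p = 0.652, exact binomial test). Apoc1 reads outnumbered those of Apoc4 7.87 times (5.76 to 11.0) in replicate 1 and 9.87 times (7.56 to 13.1) in replicate 2. In both libraries the order was Apoe, then Apoc1, then Apoc4, with intervals that did not overlap between neighbours in that order. Apoc4 (ENSMUSG00000074336.5) lies at chr7:19678083-19681479.

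Apoc2, the cofactor that activates lipoprotein lipase, was nearly silent beside its neighbours. It had 0 reads in replicate 1, which allows up to 7.55 CPM, and 2 reads in replicate 2 (2.81 CPM, 0.34 to 10.1). A replicate 1 read with an intron of Apoc2 was listed under the overlapping gene Gm44805 and is not counted here. Apoc2 is annotated 141 bases downstream of Apoc4, at chr7:19671579-19677941. Its level could not be told apart from those of Apod, Apoh or Apom in replicate 2 at this depth.

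Apoa1 and Apoa2, the HDL proteins, were read in replicate 1 alone. Apoa1 (chr9:46228580-46230466) had 23 reads in replicate 1 (57.9 CPM, 36.7 to 86.9) and 0 in replicate 2, where a count of 0 allows up to 4.21 CPM. Apoa2 (chr1:171225054-171226379) had 21 reads (52.9 CPM, 32.7 to 80.8) and 0. Both were higher in replicate 1, with adjusted p = 2.1e-08 and 1.3e-07 in the exact binomial test. These were 2 of the 5 members tested, beside 1.35% of all tested genes in that direction and 2.15% in either. With 0 reads in replicate 2, both reached the 10 reads needed only through replicate 1. The filter therefore favoured that direction, and the count of 2 is no measure of enrichment. The median log2 ratio of the 5 tested members was -0.43, and that of all tested genes was 0.03.

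Markers of liver moved with Apoa1 and Apoa2. The 29 liver markers summed to 406 reads (1022 CPM) in replicate 1 and 242 reads (340 CPM) in replicate 2. Nearly all of those in replicate 2 were on Trf, Hp, C3, Rbp4 and Cyp2e1, whose counts are given below. Of the 11 that could be tested, 8 were higher in replicate 1 and 0 in replicate 2. Among all tested genes 1.35% were higher in replicate 1. Tested markers with 0 or 1 read in replicate 2 reached the 10 reads needed only through replicate 1, so the filter favoured that direction. The median log2 ratio of the 11, -5.23, was that of Serpina1b (10 and 0 reads), and its size depends on the 0.5 reads added. Alb, serum albumin, had 32 reads and 1 read, and Serpina3k, a liver serpin, had 24 and 0. Ttr, transthyretin, had 15 and 0, and Ahsg, fetuin-A, had 12 and 0. The others past the test were Serpina1b (10 and 0) and Serpina1c (11 and 0), near-identical serpin genes whose reads may be exchanged between copies, Rbp4 (40 and 27) and C3 (77 and 63). The fibrinogen genes Fga, Fgb and Fgg had 4, 4 and 9 reads in replicate 1 and 0 in replicate 2. The tested liver genes that did not pass were Trf (58 and 58 reads), Hp (48 and 59) and Cyp2e1 (18 and 31). The part of liver RNA in the Apoa1 and Apoa2 reads was not tested. In bulk tissue, fewer cells of a type and less RNA per cell cannot be told apart.

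The remaining members were near the limit of detection. Apoh, the phospholipid-binding plasma protein beta-2-glycoprotein I, had 4 reads in replicate 1 (10.1 CPM, 2.74 to 25.8) and 0 in replicate 2. Apom, which carries sphingosine-1-phosphate on HDL, had 1 read in replicate 1 (2.52 CPM, 0.064 to 14.0) and 0 in replicate 2. Apod, a lipocalin made by glia and stromal cells, had 1 read (2.52 CPM, 0.064 to 14.0) and 3 reads (4.21 CPM, 0.87 to 12.3). None of these had the 10 reads needed for the test. Apob had 0 reads in both, which allows up to 7.55 and 4.21 CPM. Its longest annotated transcript, Apob-202, is 13934 bases long; whether that length bears on the count was not tested. Reads of 4 members (Apoe, Apoc1, Apoc4 and Apod) occurred in each library. A further 4 were found in replicate 1 alone (Apoa1, Apoa2, Apoh and Apom) and 1 in replicate 2 alone (Apoc2). Among the 16400 annotated genes found at all, the libraries shared 12578. Their totals were 13650 genes for replicate 1 and 15328 for replicate 2. The places of Apod, Apoh, Apom and Apoc2 in this split rest on 4 reads or fewer each. Whether the split of the members differs from that of all genes was not tested.

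**Figure D1:**
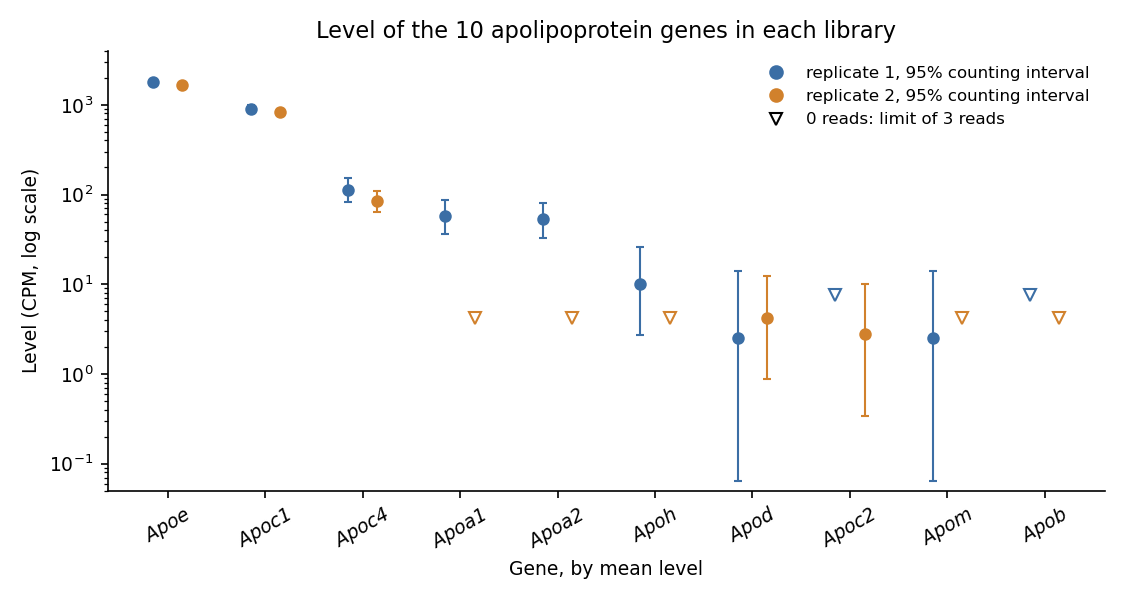
Level of each gene in CPM on a log axis, 1 point per library with its 95% counting interval; open triangles mark the level that 3 reads would give where none was read. Apoe, Apoc1 and Apoc4 have points in both libraries that lie close together, whereas Apoa1 and Apoa2 stand at 57.9 and 52.9 CPM in replicate 1 with 0 reads in replicate 2.

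Together the 10 genes took 1163 reads in replicate 1 and 1848 in replicate 2, 0.293% (0.276 to 0.310) and 0.260% (0.248 to 0.272) of the reads on annotated genes. Of these, Apoe held 61.4% (58.6 to 64.1) in replicate 1 and 64.4% (62.2 to 66.6) in replicate 2. Apoc1 held 30.4% (27.9 to 33.1) and 32.0% (29.9 to 34.2). Apoa1 and Apoa2 held 1.98% and 1.81% of them in replicate 1.

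**Figure D2:**
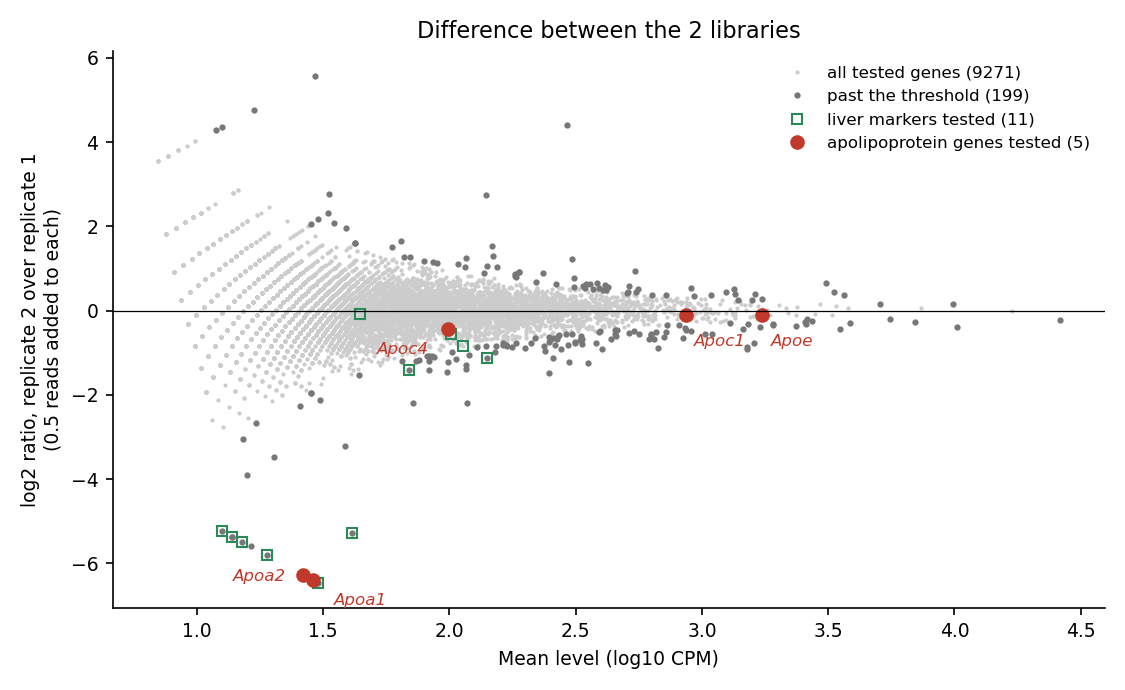
The log2 ratio of replicate 2 over replicate 1 (0.5 reads added to each) against mean level, for 9271 tested genes, with the 5 tested apolipoprotein genes and the 11 tested liver markers marked. Apoe and Apoc1 lie at -0.10, near the line of equal levels, and Apoa1 (-6.40) and Apoa2 (-6.27) lie at the bottom beside 6 liver markers.

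Of 22 other apolipoprotein and related genes, 9 were read and 2 could be tested, with 0 past the threshold in either direction (exact binomial test; 0 also at an unadjusted p of 0.05). Clu, which encodes clusterin (ApoJ), was the highest at 233 ± 27.4 CPM (SD, n = 2), with 85 and 180 reads. Apof, a regulator of lipid transfer, had 3 and 7 reads. Apoc3, an inhibitor of lipoprotein lipase, had 7 reads in replicate 1 and 0 in replicate 2. Apoa4, Apoa5 and the 4 serum amyloid A genes (Saa1 to Saa4) had 0 reads in both.

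Among genes of lipoprotein uptake, 15 of 17 were read in both libraries, 11 were tested and 1 was higher in replicate 1. That gene was Scarb1, the HDL receptor, with 1145 reads (2883 CPM) and 1637 reads (2299 CPM), a log2 ratio of -0.33 (adjusted p = 1.5e-06, exact binomial test). Of 18 genes of lipases, particle assembly and lipid transfer, 12 were tested and 1 was higher in replicate 1: Lpl, lipoprotein lipase, at 458 and 324 CPM (log2 ratio -0.50, adjusted p = 0.033, exact binomial test). Of the 9 genes around LXR, the sterol-sensing receptor known to induce Apoe and the Apoc genes, 7 were tested and 0 passed (3 at an unadjusted p of 0.05, all higher in replicate 1, beside 1070 of the 9271 genes tested); the highest were Nr1h2 (LXR-beta), Rxrb and Srebf1 at 192, 137 and 136 CPM on average.

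Macrophages are a known source of Apoe and Apoc1, and their 15 markers summed to 100 reads (252 CPM) and 276 reads (388 CPM). Of the 10 tested macrophage markers 0 passed (1 at an unadjusted p of 0.05, again beside 1070 of 9271), and their median log2 ratio was 0.74, toward replicate 2. The highest were Cd74 (62.9 and 99.7 CPM), Lyz2 (62.9 and 49.2) and C1qa (25.2 and 49.2). Schwann cell and glial markers summed to 35.2 and 52.0 CPM, and capsule and stroma markers to 267 and 324 CPM. Adipocyte markers summed to 2410 and 2000 CPM, and 1 of 9 tested was higher in replicate 1: Ucp1, the uncoupling protein of brown fat, at 526 and 279 CPM (adjusted p = 7.4e-08, exact binomial test). The part of these cells in the levels of Apoe, Apoc1 and Apod was not tested.

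The members' reads fell on 31 transcript models in replicate 1 and 27 in replicate 2, of 65770 and 99131 mouse models. Matched by chromosome, strand and intron chain (1-exon models by position), they were 44 distinct models. Of these, 14 were read in both libraries, 17 in replicate 1 alone and 13 in replicate 2 alone. Many of the models read in 1 library alone had 1 read. The same match was not made for all mouse models, so whether this overlap is usual is not known. The models shared by both libraries held 95.2% of the members' reads in replicate 1 and 99.1% in replicate 2. Of the 14, 12 were spliced, and 6 of those were annotated transcripts: Apoe-206, Apoe-205, Apoe-210, Apoc1-201, Apoc1-202 and Apoc4-201. No model of Apoa1, Apoa2, Apoc2, Apod, Apoh or Apom was read in both. For all of these but Apod this was given, since the gene had reads in 1 library alone.

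For Apoe, 73.4% of reads in replicate 1 and 76.5% in replicate 2 were on annotated transcripts, 74.9% ± 2.19 (SD, n = 2). For Apoc1 the share was 94.9% and 95.9%, and for Apoc4 95.6% and 95.0%. For none of the 3 did this share pass the test between the libraries (adjusted p = 1 for each, Fisher's exact test), which 0.229% of 3926 genes passed. The median gene of that comparison had 84.6% annotated reads in each library.

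**Figure D3:**
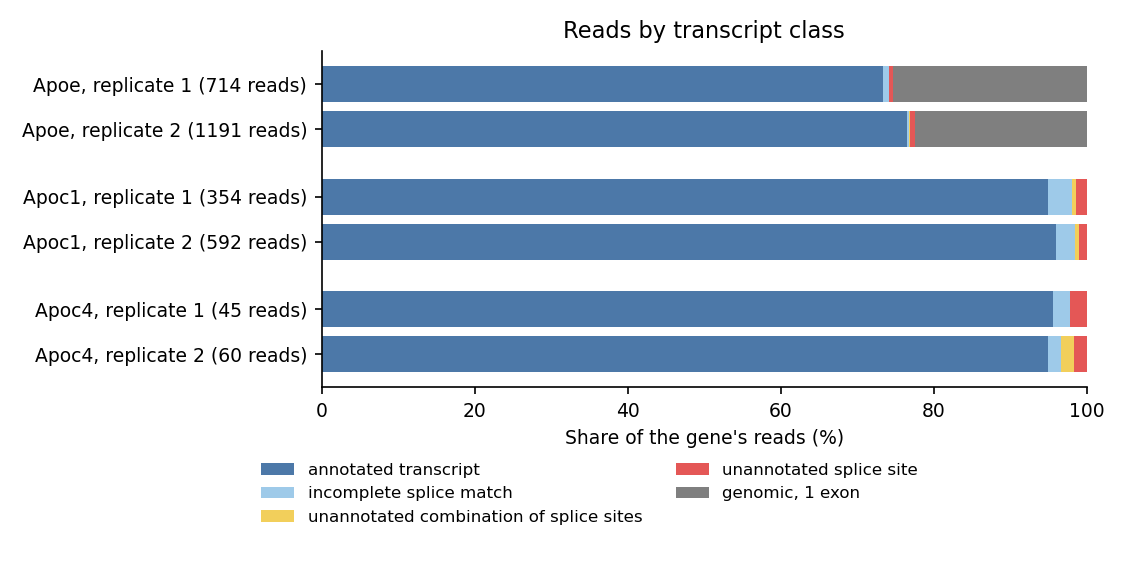
Share of each gene's reads by transcript class, 1 bar per gene and library. The grey genomic part of Apoe, 25.4% in replicate 1 and 22.4% in replicate 2, has no counterpart in Apoc1 or Apoc4.

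Nearly all other Apoe reads were on a single unspliced model. This model of 354 bases spans chr7:19696267-19696620, inside the last exon, and held 181 reads (25.4%, 22.3 to 28.7) and, in replicate 2, 267 reads (22.4%, 20.1 to 24.9). It covers the last 238 bases of coding sequence, the stop codon and the 3′ untranslated region up to the annotated end of Apoe-202, just past the AATAAA shown above. The other end of the model, 19696620, is the annotated end of Apoe-204, and the ends of its single reads were not examined. The files class it as genomic, meaning within a gene but without its splicing. In the median gene such models held 0% and 1.18% of reads, and 96 of 3926 genes had a higher share than Apoe in both libraries.

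The main spliced form of Apoe was Apoe-206, with 499 reads (69.9%, 66.4 to 73.1) and, in replicate 2, 886 reads (74.4%, 71.8 to 76.8). No read was listed under Apoe-201, which also has 4 exons but, by its annotated span and length, not the same introns throughout. The counts do not show where the single reads of Apoe-206 start and end. The annotated junction of exon 1 to exon 2 shown above was carried by 504 and 888 reads.

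Some Apoe reads were assigned to models that begin inside intron 1. Apoe-205, whose annotated start lies 781 bases after that of the gene, had 22 reads (3.08%, 2.04 to 4.62) and 20 reads (1.68%, 1.09 to 2.58). The difference in this share between the libraries was not tested. Its first exon holds the last 154 bases of intron 1 and runs on into exon 2. A model outside the annotation had a first exon of 149 bases at chr7:19698860-19699008, also within intron 1, spliced to exon 2. Replicate 1 had 2 such reads (0.28%, 0.077 to 1.02) and replicate 2 had 7 (0.59%, 0.29 to 1.21). Its intron begins with GT, the usual first bases of an intron, as the capitals of the unannotated site show, and its 5′ end is the annotated start of Apoe-209. Apoe-206, Apoe-205 and this model share the 2 introns downstream of exon 2. The annotation gives Apoe-206 and Apoe-205 the same coding length of 933 bases.

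Minor Apoe forms had few reads. A model of the last exons alone had 4 and 4 reads, Apoe-210 had 3 and 1, and Apoe-204 and Apoe-208 had 0 and 2 each. The other Apoe models had 1 read in 1 library each.

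**Figure D4:**
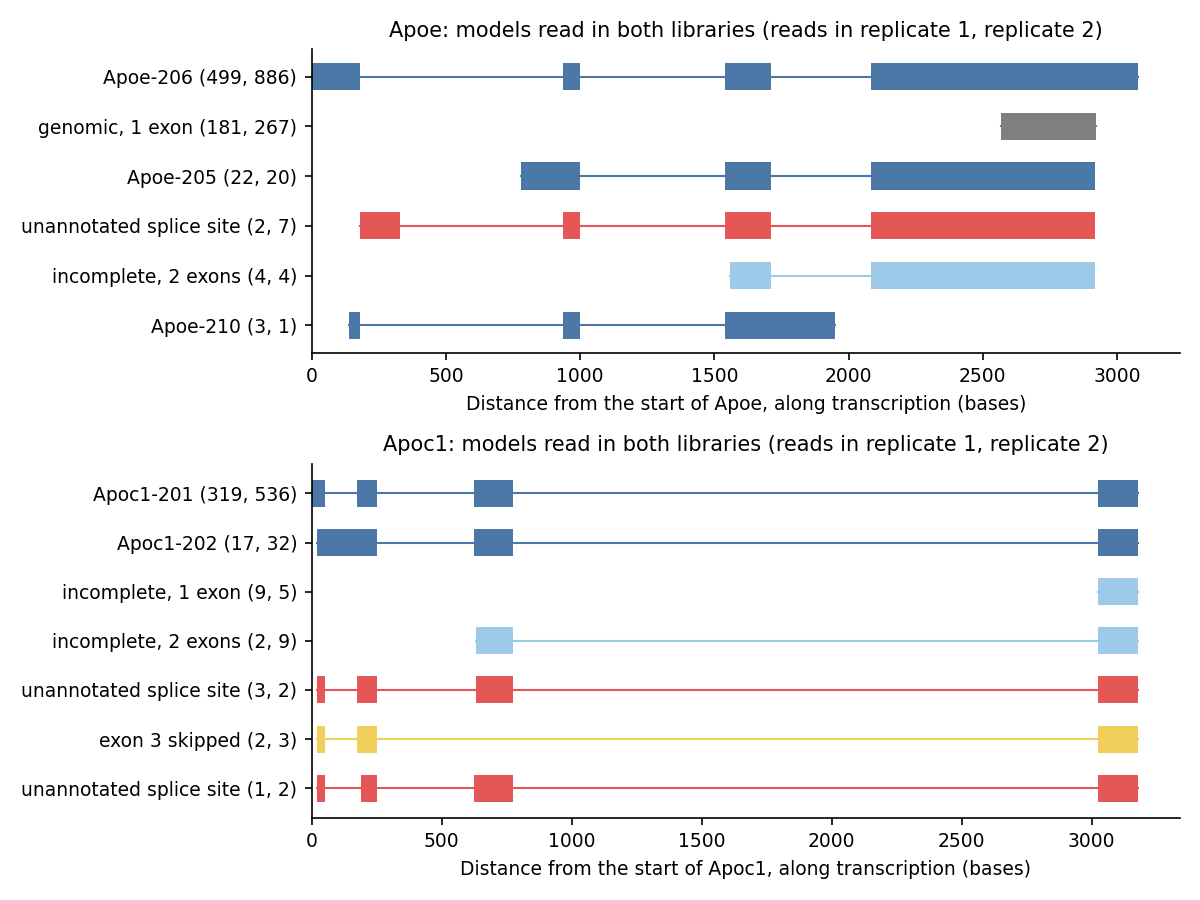
Exons (boxes) and introns (lines) of the Apoe and Apoc1 models read in both libraries, by distance from each gene's start along transcription, with reads in replicate 1 and replicate 2 in brackets. Blue models are annotated, pale blue ones incomplete and yellow an unannotated combination of sites. Red ones have an unannotated splice site and the grey one is the genomic model. Apoe-206 (499 and 886) and Apoc1-201 (319 and 536) hold most reads. The incomplete Apoc1 model of 2 exons is drawn in its replicate 1 form (298 bases), whereas that of replicate 2 has 760 bases and keeps intron 2.

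Apoc1 was read mainly as Apoc1-201, with 319 reads (90.1%, 86.6 to 92.8) and 536 reads (90.5%, 87.9 to 92.6). Apoc1-202, which keeps intron 1 of 122 bases, had 17 reads (4.80%, 3.02 to 7.55) and 32 reads (5.41%, 3.85 to 7.53). This intron lies before the annotated coding start, and both transcripts have 264 coding bases. The annotated splice of intron 1, between the borders shown above, was carried by 325 and 541 reads.

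Of 4 unannotated Apoc1 introns, 2 were read in both libraries, 1 in replicate 1 alone (1 read) and 1 in replicate 2 alone (2 reads). Of those in both, a site that leaves 6 bases, a multiple of 3, out of exon 3 was carried by 3 reads in each library. A site that leaves 17 bases out of exon 2, ending 1 base before the annotated start codon, was carried by 1 and 2 reads. The bases left out end in AG in both cases, the usual last bases of an intron. Exon 3 was skipped in 2 and 3 reads (0.56% and 0.51%). The last exon alone had 9 reads (2.54%, 1.34 to 4.76) and 5 reads (0.84%, 0.36 to 1.96). Models spliced at the last intron alone had 2 reads in replicate 1 and 9 in replicate 2, but differed in shape. That of replicate 1 (298 bases) held the last 2 exons. That of replicate 2 (760 bases) also kept intron 2 and exon 2, and began at the annotated start of the retained-intron transcript Apoc1-203. Differences between the libraries in these models were not tested.

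Apoc4 was read as Apoc4-201, with 43 reads (95.6%, 85.2 to 98.8) and 57 reads (95.0%, 86.3 to 98.3). Its 5 other models had 1 read each, 2 of them in replicate 1 and 3 in replicate 2. The Apoc2 reads of replicate 2 were 1 on Apoc2-201 and 1 on a model with an unannotated splice site. Apoa1 reads of replicate 1 were 22 on Apoa1-201 and 1 on the last exon. Apoa2 reads were split over Apoa2-201 (9 reads), Apoa2-204 (6), Apoa2-203 (1) and 5 reads on models outside the annotation, of which 3 were on a model of the last exons; the annotation gives these 3 transcripts the same 306 coding bases. Apoh and Apom reads were all on Apoh-201 (4) and Apom-201 (1). Apod reads of replicate 2 were 2 on Apod-203 and 1 on a model with an unannotated splice site, and its read of replicate 1 was an unspliced model of 35 bases.

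No model joined Apoe to Apoc1, or Apoc1 to Apoc4, in either library. The genes run in the same direction over 27610 bases from Apoe to Apoc2, with gaps of 3448 bases between Apoe and Apoc1 and 8001 between Apoc1 and Apoc4, and 141 between Apoc4 and Apoc2. A model counted as joining when its exons overlapped exons of at least 2 of these genes or their neighbours. The only such model was Gm44805-201, an annotated read-through transcript that splices the first exon of Apoc4 to exons of Apoc2, with 1 read in replicate 2 (0 in replicate 1, which allows up to 3). Its junction, shown above, bridges 4420 bases. A further read listed under Gm44805 in replicate 1 had the single intron that Apoc2 also has and overlapped Apoc2 alone.

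The nearest listed neighbour on each side had a level between those of Apoc1 and Apoc4. Tomm40, a mitochondrial import channel 2124 bases upstream of Apoe, stood at 250 ± 25.9 CPM (SD, n = 2), and Clptm1, 6545 bases downstream of Apoc2, at 394 ± 2.44 CPM. Of 10 neighbouring genes, 8 were tested and 0 passed the exact binomial test (2 at an unadjusted p of 0.05, beside 1070 of 9271 genes tested).

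**Figure D5:**
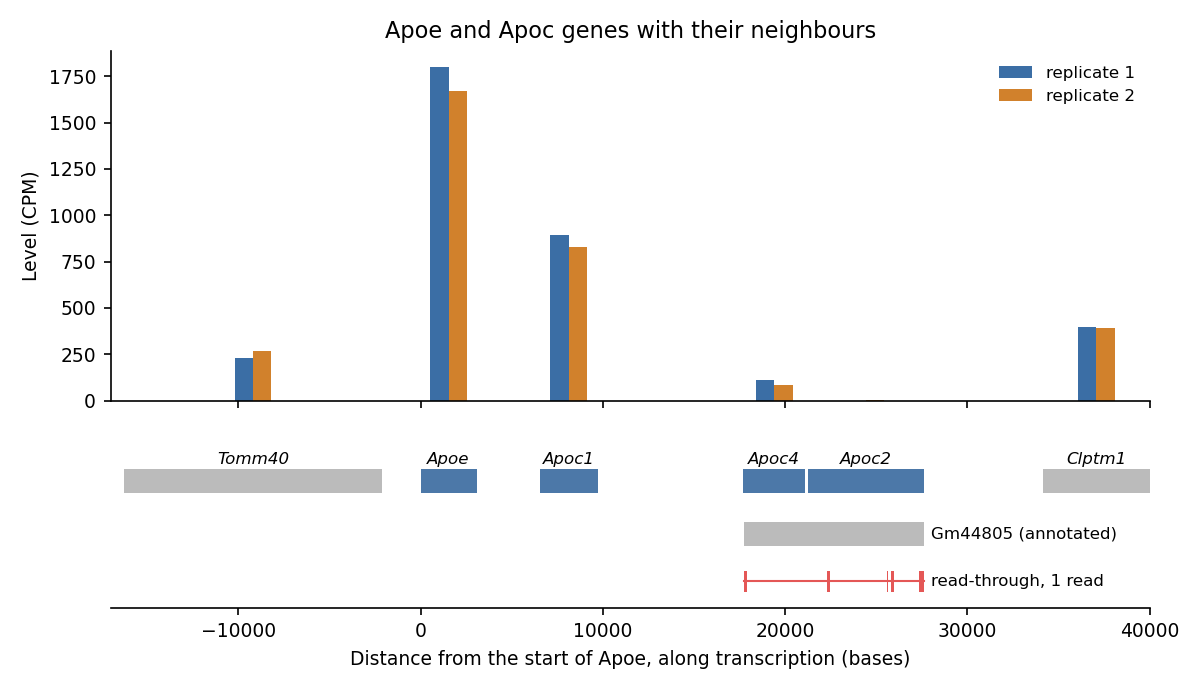
Level of each gene in CPM (bars, 1 per library) above gene bodies placed by distance from the start of Apoe along transcription; the Apoc1 bars stand at 891 and 831 CPM and the Apoe bars at 1798 and 1673. Clptm1 is cut at the edge, Gm44805 has no bar, and the red model is the single read-through from Apoc4 to Apoc2.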

How the data were processed

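The authors' deposited tables hold read counts per transcript model, 1 table per library, with the number of exons and length of each model. Per the file headers, reads were assigned to GENCODE M21 and added models by TALON on mm10; the aligner was not given in the sources used here. Members were found by gene name in both tables, and their genes' counts are sums over models. Added control RNAs were left out. Each gene with at least 10 reads in all was tested between libraries by an exact binomial test, two-sided, of its reads against the library totals (scipy 1.17.1) with Benjamini-Hochberg adjustment over all of them, with a threshold of 0.05; log2 ratios had 0.5 reads added, and their intervals did not. Annotated against other reads were compared by Fisher's exact test in genes with at least 20 reads in each library. Intervals are 95% Wilson for shares and exact Poisson for counts. A count of 0 allows 3 reads. Scaling alternatives used edgeR 4.0.16 (TMM) and DESeq2 1.42.0. The tests were checked on simulated counts, with changes planted in well-read genes alone for the binomial test and no change for Fisher's test. Changes at counts as low as those of Apoa1 and Apoa2, and variation beyond counting error, were not covered. Named were all members, genes of each list past the test or else up to its 3 highest, up to 5 most read models of each member, and joining models; the single-read sites, the fibrinogens and the untested genes were added after their values were seen. The members and lists were chosen with earlier results of these data known. Alleles of the parental strains, SIRV controls and protein sequences were not analysed here.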

Additional observations from a re-analysis of the deposited data

How the results depend on the processing

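The counts limit these results: 5 of the 10 genes reached 10 reads, and below that level only large differences could be seen. The log2 ratios of Apoe, Apoc1, Apoc4, Apoa1 and Apoa2 kept their direction and their side of the threshold under every alternative in which each was tested. The adjusted p ranged from 0.337 to 0.939 for Apoe, from 1.1e-08 to 6.0e-08 for Apoa1 and from 7.6e-08 to 1.5e-05 for Apoa2. With at least 30 reads required, Apoa1 and Apoa2 were no longer tested and 0 members passed (3 tested). The count of all genes past the threshold lay between 152 (no filter on low counts) and 203. The summed level of the members, 2762 CPM, was 2272 with annotated transcripts alone and 2327 with models of at least 2 exons alone, which leave out the genomic Apoe model; it was 2595 without replicate 1 and 2928 without replicate 2. Matched by the same model identifier, 6 spliced models were read in both libraries instead of 12, because identifiers of unannotated models differ between the tables; with both ends within 100 bases there were 11. The read-through count was 1 when splice sites replaced exon overlap. No paired analysis was possible because there is 1 group.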

Other observations

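Reads on the opposite strand of the members were rare. A model of 1 exon on the plus strand, within the body of Apod and named antisense in the files, was read 3 times, in replicate 2. A further plus-strand model began at the annotated start of Apoe and ran away from it, with 1 read in replicate 2. Both counts are at or under the 3 reads that a count of 0 allows.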
